A study of Homo sapiens with 40 samples.

Results

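H3K27me3 coverage was examined at 10 genes of the MHC class II pathway in KMS-11, a human multiple myeloma cell line with the t(4;14) translocation, which brings about overexpression of the histone methyltransferase gene NSD2. The genes were taken by name: the chain genes HLA-DRA, HLA-DRB1, HLA-DQA1, HLA-DQB1, HLA-DPA1 and HLA-DPB1, the peptide-exchange genes HLA-DMA and HLA-DMB, the invariant chain gene CD74, and CIITA, which encodes their activator. They were 10 of the 19451 RefSeq protein-coding genes scored, and 8 of them were among the 13977 genes that passed a filter on coverage. The measure was the percent of the gene body, from the first to the last annotated base, that lay inside peaks of H3K27me3 CUT&Tag, in which an antibody against the modification directs a transposase to cut the DNA around it. It is a share of the gene's length, so a peak of a given width weighs more in a short gene than in a long one, and it says where peaks were called, not how high the signal was.

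The 30 libraries formed 15 groups of 2. All groups carried the translocation of the KMS-11 line. The first set held the wild-type parental line of the knockout experiment (KO parental) and NSD2 KO clones 3 and 12. The second held a wild-type parental line used for dTAG engineering (dTAG parental) and clones 8 and 11, derived from it with a dTAG knock-in at NSD2, each at days 0, 7, 14 and 21 of dTAGV-1, a compound that directs a dTAG-fused protein to a ubiquitin ligase. The dTAG cells received 100 nM, and no dose is stated for the parental line. Each genotype thus rests on 1 or 2 clones, and the 2 libraries of a clone are replicates of that clone only. Replicates of the clones are described as biological, while nothing in the labels says that the parental libraries came from separate cultures, so the p-values below measure the spread between these libraries, which may be technical. By their labels 14 libraries had NSD2 (both parental lines at all days and the dTAG clones at day 0) and 16 lacked it or were treated to degrade it (the KO clones and the dTAG clones at days 7, 14 and 21); these are called libraries with and without NSD2. Peaks of this modification do not measure NSD2 protein, so its loss could not be checked here.

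MHC class II molecules are heterodimers that carry peptides from endocytosed proteins to the surface of antigen-presenting cells, where CD4 T cells read them. HLA-DR, HLA-DQ and HLA-DP each pair an alpha with a beta chain. CD74 occupies the groove during assembly, and HLA-DM then exchanges the CD74 fragment for an antigenic peptide. Transcription of all of these genes depends on CIITA, which binds no DNA itself and is recruited by RFX, CREB and NF-Y proteins bound to conserved X and Y boxes just before the gene starts. B cells express CIITA, and plasma cells, the normal counterpart of myeloma, shut it off through the repressor PRDM1 (BLIMP-1). H3K27me3 is laid down by Polycomb repressive complex 2, and H3K36me2, the product of NSD2, is known to hinder that enzyme.

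The stretches just before the starts of these genes show what the peaks at the starts covered. For 8 of the 10 genes RefSeq (GRCh38.p14) gave a start with sequence, and the table used here held none for HLA-DRA and CIITA. The 200 bases before the start are shown 5′ to 3′ on the gene's own strand, for 5 genes picked to show starts inside and outside peaks. Capitals mark matches to ACNGATG, the core of the X box, on either strand, and to CCAAT or its reverse complement ATTGG, the core of the Y box; no matches to the X and Y letters overlapped. In order, the stretches lie at chr6:32953098-32953297 on the minus strand, chr6:32941029-32941228 on the minus strand, chr6:32666658-32666857 on the minus strand, chr6:33075790-33075989 on the plus strand and chr6:32589849-32590048 on the minus strand.
HLA-DMA: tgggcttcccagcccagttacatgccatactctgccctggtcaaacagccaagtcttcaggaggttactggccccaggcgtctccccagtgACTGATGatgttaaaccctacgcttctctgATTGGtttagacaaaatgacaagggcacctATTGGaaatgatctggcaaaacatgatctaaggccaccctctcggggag
HLA-DMB: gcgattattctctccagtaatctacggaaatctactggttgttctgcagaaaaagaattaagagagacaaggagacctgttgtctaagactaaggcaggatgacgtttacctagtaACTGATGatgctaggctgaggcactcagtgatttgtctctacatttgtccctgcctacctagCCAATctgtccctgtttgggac
HLA-DQB1: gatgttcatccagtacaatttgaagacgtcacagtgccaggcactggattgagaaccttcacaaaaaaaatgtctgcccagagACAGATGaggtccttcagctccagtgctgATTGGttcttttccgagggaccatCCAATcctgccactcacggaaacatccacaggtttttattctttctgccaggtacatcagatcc
HLA-DPB1: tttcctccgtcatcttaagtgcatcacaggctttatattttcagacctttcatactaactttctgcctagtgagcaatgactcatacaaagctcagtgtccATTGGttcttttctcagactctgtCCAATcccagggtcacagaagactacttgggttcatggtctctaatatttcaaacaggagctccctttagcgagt
HLA-DRB1: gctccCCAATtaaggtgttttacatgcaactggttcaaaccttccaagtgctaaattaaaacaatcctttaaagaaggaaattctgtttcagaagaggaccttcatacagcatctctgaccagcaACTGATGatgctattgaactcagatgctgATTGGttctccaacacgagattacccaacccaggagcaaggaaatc
The X letters were found before 4 of the 8 outermost starts and the Y letters before 7. Over all 13392 genes with a start, 3.68% had the X letters, 30.9% the Y letters and 1.16% both. The HLA-DMA stretch was touched by a peak in 30 of 30 libraries and lay wholly inside peaks in 27. HLA-DMB was touched in 30 and HLA-DQB1 in 29 libraries, HLA-DPB1 in 23 and CD74 in 21. HLA-DRB1, whose stretch also holds both sets of letters, was touched in 1 library, and HLA-DQA1 in 2. A match of letters is a description and shows no binding.

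Before the results, some facts of the whole series bear on every value. Total length called per library ranged from 36.1 to 168 Mb. It averaged 130 ± 30.7 Mb in the KO clones (SD, n = 4) and 67.4 ± 19.3 Mb in KO parental (n = 2; exact two-sided permutation test, p = 0.133, where 0.0667 is the smallest p possible). In the dTAG clones it rose from 50.7 ± 14.1 Mb at day 0 to 112 ± 11.6, 113 ± 25.9 and 120 ± 29.9 Mb at days 7, 14 and 21 (n = 4 each; exact two-sided permutation p = 0.0286 for each day, the smallest possible, and 0.0476 after adjustment over 5 comparisons). dTAG parental had 57.6 ± 26.4 Mb called before treatment and 77.8 ± 31.2 Mb after 21 days (n = 2 each, exact permutation p = 0.667, smallest possible 0.333). Read counts were not given in the files, and an estimate of the caller's background pileup was 1.22-fold higher in the KO clones than in KO parental and 1.62-fold higher in the dTAG clones at day 21 than at day 0; the part of depth in any gain was not tested beyond the fits named with each result. Scaled to equal called length, all genes tested split into 1515 gained and 1882 lost in the KO clones, against 2510 and 104 unscaled, and into 2177 gained and 4452 lost at day 21, against 3697 and 69. In libraries with NSD2 the mean coverage of 8 plasma cell markers ranged from 1.97% to 9.91% and of 8 B cell markers from 6.83% to 18.0%, which describes this modification and not expression. Coverage of 6 monocyte markers ranged from 0.291% to 2.73% with NSD2 and from 3.62% to 22.3% without, and of 6 T cell markers from 1.17% to 11.6% and from 6.27% to 24.3%; their part in the members' changes was not tested. Of these markers, the T cell gene CD8A gained in the KO clones and, with CD4, at day 21, and the monocyte gene LYZ gained in the KO clones and, with CD14 and CSF1R, at day 21 (limma adjusted p from 5.75e-05 to 0.00852).

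Averaged over the 30 libraries, as a percent of each gene's own length, HLA-DPB1 had the highest coverage at 12.1%, followed by HLA-DPA1 at 10.4%, HLA-DMB at 9.49% and HLA-DQB1 at 8.61%. CIITA at 5.54% and HLA-DMA at 5.41% formed a middle pair. CD74 averaged 2.96% and HLA-DRA 1.99%. HLA-DRB1 averaged 0.770% and HLA-DQA1 0.509%, both under the 1% mean required for the test. Neighbours in this order differ by less than the spread between libraries, which for HLA-DPB1 ran from 0% to 27.0%. Among all scored genes HLA-DPB1 stood at percentile 79.9 and HLA-DQA1 at percentile 18.3, so the set spans low to fairly high coverage.

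**Figure D1:**
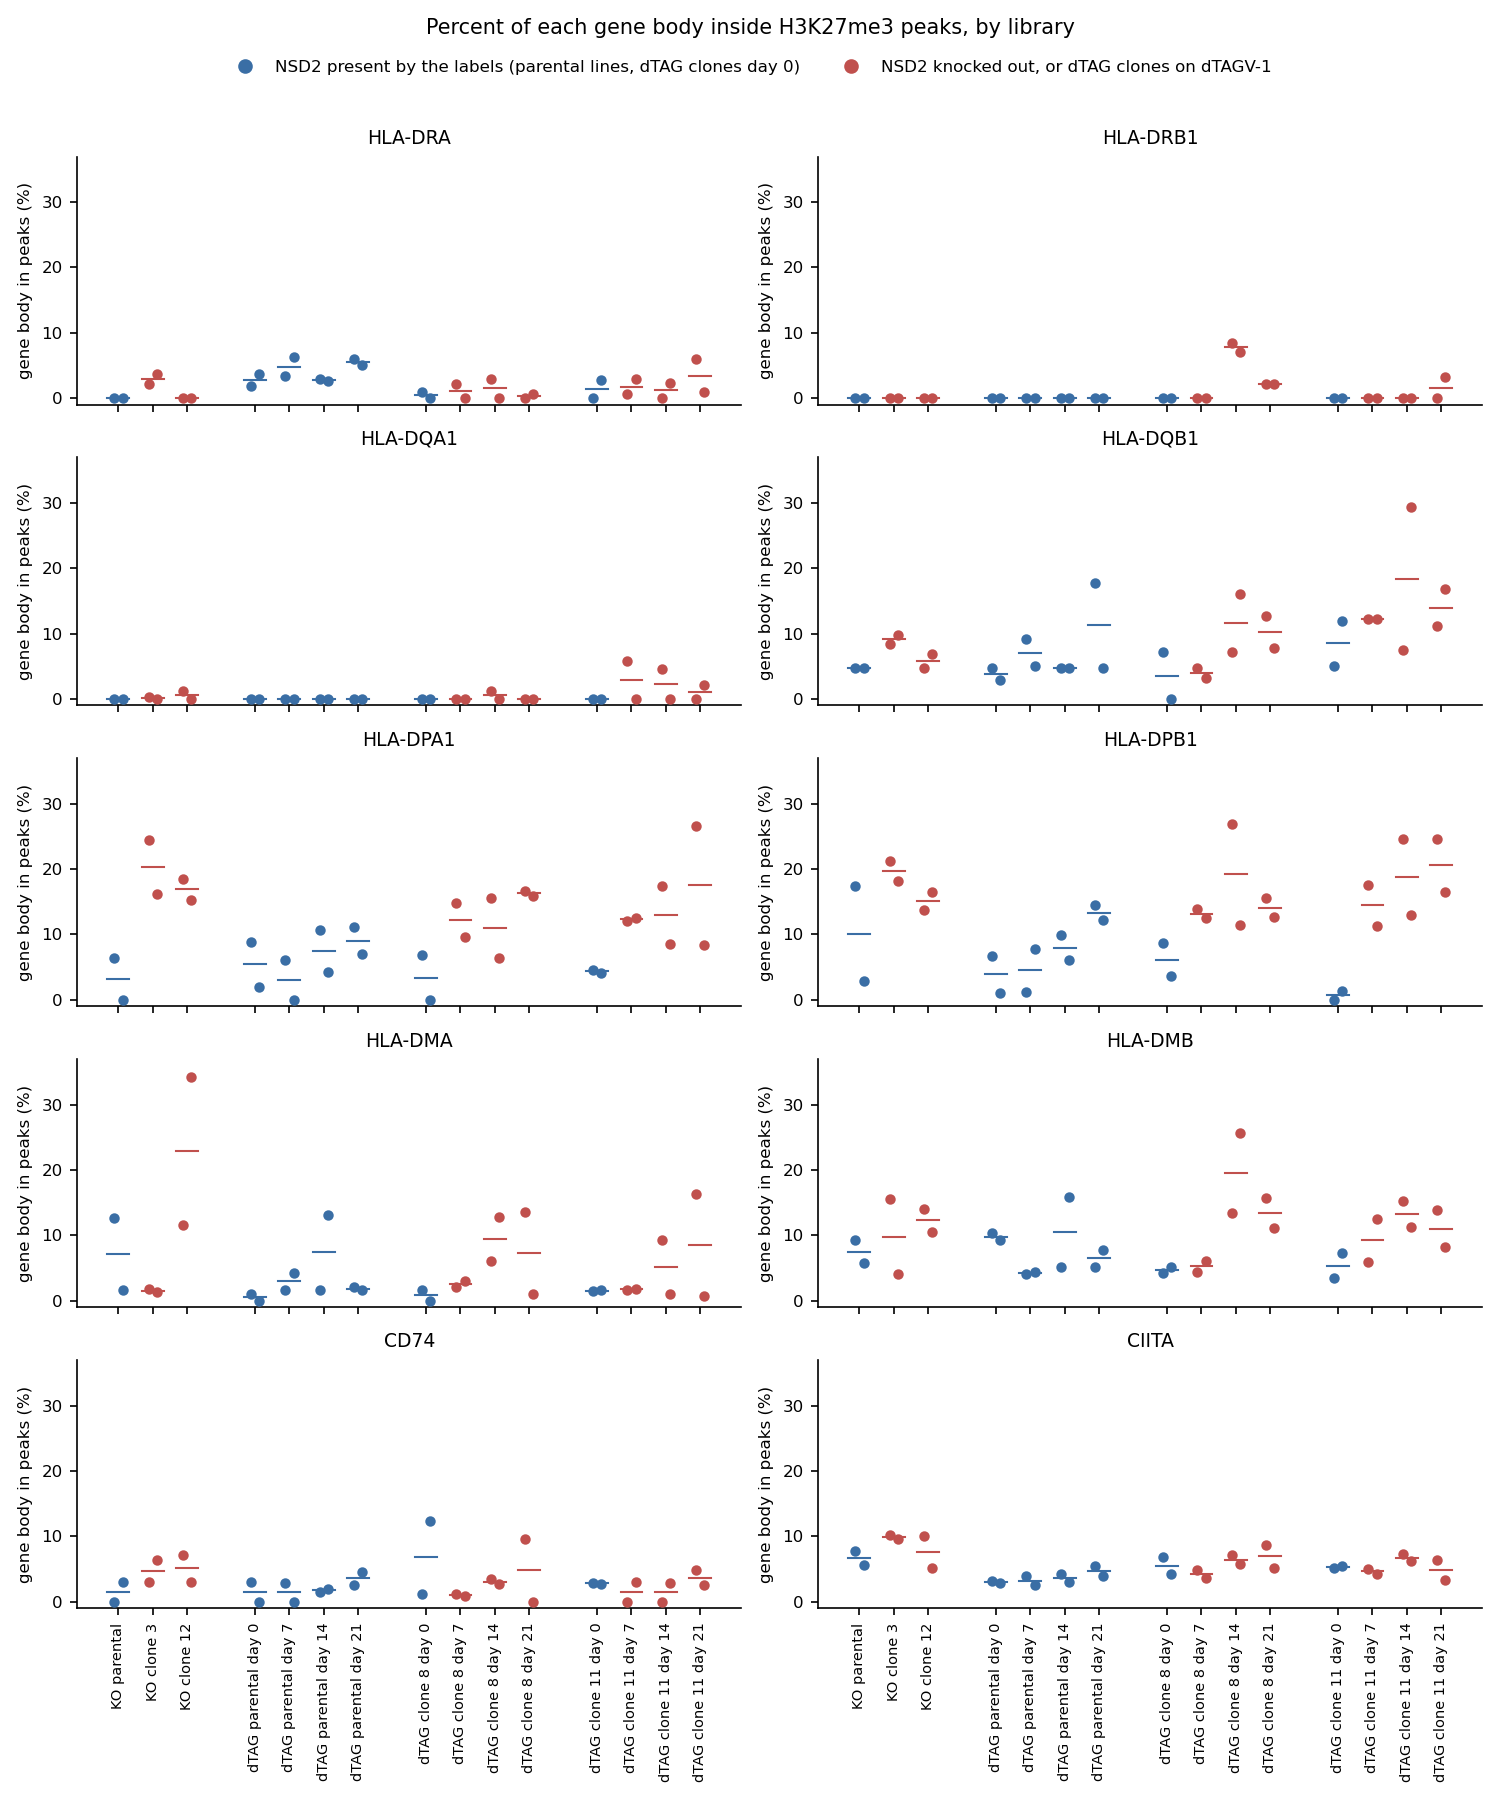
Percent of each gene body inside H3K27me3 peaks (y axis) in each of the 30 libraries (points) by group (x axis), with the mean of the 2 libraries as a line. HLA-DPA1 and HLA-DPB1 are higher in most libraries without NSD2, CIITA and CD74 stay under 13% throughout, and HLA-DRB1 and HLA-DQA1 are at 0 in all 14 libraries with NSD2.

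HLA-DPA1 and HLA-DPB1, the 2 chains of HLA-DP, were the members with the most coverage without NSD2. Their genes lie head to head on opposite strands at chr6:33064569-33080748 and chr6:33075990-33089696 and overlap, so part of their coverage is the same bases. HLA-DPA1 covered 24.5% and 16.2% of its body in KO clone 3 and 18.5% and 15.4% in KO clone 12, against 6.42% and 0% in KO parental. All 4 KO libraries lay above both parental ones, as for 28.6% of all genes tested. The mean was 18.6% ± 4.11 (SD, n = 4) in the KO clones, and the difference of 15.41 percentage points (SE 4.38) passed the test (limma, Benjamini-Hochberg adjusted p = 0.0190 over all genes tested). It did not pass without the second KO parental library (12.20 points, limma adjusted p = 0.235), without the first of KO clone 3 (13.34 points, limma adjusted p = 0.0687) or without the first of KO clone 12 (14.63 points, limma adjusted p = 0.0536).

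In the dTAG clones HLA-DPA1 was at 6.82%, 0%, 4.62% and 4.16% at day 0 and at 16.6%, 16.0%, 26.6% and 8.44% at day 21, in the order clone 8 then clone 11. All day 21 libraries were above the range of day 0, as for 27.6% of all genes tested. The mean rose from 3.90% ± 2.85 to 16.9% ± 7.46 (n = 4 each), a gain of 13.01 points (SE 3.58, limma adjusted p = 0.0113). Without the first day 21 library of clone 11 it was 8.46 points (limma adjusted p = 0.0843), and without the second day 0 library of clone 8 it was 11.30 points (limma adjusted p = 0.0600). The gains at day 7, 8.38 points (SE 3.58), and at day 14, 8.07 points (SE 3.58), did not pass (limma adjusted p = 0.111 and 0.123). In dTAG parental HLA-DPA1 was at 8.89% and 2.01% at day 0 and at 11.1% and 6.96% at day 21, ranges that overlap.

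HLA-DPB1 was at 8.67%, 3.58%, 0% and 1.37% in the dTAG clones at day 0. At day 7 it was at 13.9%, 12.5%, 17.6% and 11.3%, at day 14 at 27.0%, 11.4%, 24.6% and 13.0%, and at day 21 at 15.5%, 12.6%, 24.7% and 16.5%. Every treated library was above every day 0 library. The same held for 29.8% of all genes tested at day 7, 24.6% at day 14 and 27.6% at day 21, each day taken alone. The gains were 10.43 points at day 7 (SE 3.64, limma adjusted p = 0.0496), 15.59 at day 14 (SE 3.64, adjusted p = 0.00449) and 13.92 at day 21 (SE 3.64, adjusted p = 0.00809). The gain at day 7 lost its call without any 1 of the 8 libraries, with limma adjusted p from 0.0545 to 0.173.

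HLA-DPB1 did not pass in the KO clones. It was at 21.3% and 18.2% in clone 3 and 13.7% and 16.5% in clone 12, while the 2 KO parental libraries were far apart at 17.4% and 2.86%. The difference was 7.30 points (SE 4.45, limma adjusted p = 0.324), and it was 0.0274 points without the second KO parental library and 14.57 points without the first. HLA-DPB1 was also higher at day 21 in dTAG parental, at 14.5% and 12.2% against 6.76% and 1.08% at day 0, and that difference of 9.40 points (SE 5.14) did not pass (limma adjusted p = 1). The gain in the dTAG clones exceeded that in dTAG parental by 4.53 points with a 95% interval from -8.75 to 17.8, and this difference between lines did not pass either (limma adjusted p = 0.815).

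The bases that only 1 of the pair holds were scored apart, an alternative added after the data had been seen. Over its own bases HLA-DPA1 was at 17.6% ± 7.84 at day 21 against 4.38% ± 3.13 at day 0, and HLA-DPB1 at 18.4% ± 5.67 against 3.75% ± 4.63 (n = 4 each), and both gains passed (limma adjusted p = 0.0123 and 0.0107). The bases held by both genes went from 2.76% ± 3.44 to 15.2% ± 7.32. In the KO clones the gain of HLA-DPA1 over its own bases, 11.95 points, no longer passed (limma adjusted p = 0.0786), and HLA-DPB1 over its own bases was 1.43 points lower than in KO parental (difference -1.43). Both HLA-DP genes followed the total called length of the groups closely, with Pearson's r of 0.925 for HLA-DPA1 and 0.864 for HLA-DPB1 across the 15 group means, which share libraries, clones and depth. With the background pileup as a covariate the day 21 gains were 7.64 points for HLA-DPA1 and 9.82 points for HLA-DPB1, and neither passed (limma adjusted p = 0.0875 and 0.0648). With all peak lists shortened to equal length, the day 21 difference of HLA-DPB1 was 0.69 points (limma adjusted p = 0.657), while that of HLA-DPA1 was 5.08 points and passed (limma adjusted p = 9.89e-05).

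HLA-DMA and HLA-DMB encode the 2 chains of the HLA-DM exchange factor and lie side by side, HLA-DMB at chr6:32934636-32941028 and HLA-DMA at chr6:32948618-32953097. HLA-DMB had a peak in all 30 libraries. In the dTAG clones it was at 4.30%, 5.10%, 3.44% and 7.24% at day 0 and at 13.4%, 25.6%, 15.3% and 11.2% at day 14. All day 14 libraries of HLA-DMB were above those of day 0, as for 24.6% of all genes tested. Its gain of 11.36 points (SE 2.97) passed (limma adjusted p = 0.00965). Counting only peaks with a −log10 q of at least 5, HLA-DMB was lower at day 14 than at day 0 (difference -1.05), and likewise with a fold of at least 4 (difference -1.91). At day 21 the libraries were at 15.8%, 11.1%, 13.8% and 8.27%, all still above day 0, as for 27.6% of all genes tested. The day 21 difference of 7.20 points (SE 2.97) missed the threshold (limma adjusted p = 0.0843). HLA-DMB in the KO clones was at 15.5%, 4.02%, 14.0% and 10.6% against 9.28% and 5.76% in KO parental, ranges that overlap.

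HLA-DMA was low in most libraries and high in a few. The KO clones parted: 1.74% and 1.25% in clone 3, 11.5% and 34.3% in clone 12, with KO parental at 12.6% and 1.63%. Clone 12 stood 21.40 points above clone 3 (SE 6.18), which did not pass (limma adjusted p = 0.0644; this comparison of clones was added after the data had been seen). With the bases within 2 kb of the start left out, also added after the data had been seen, the difference was 40.38 points and passed (limma adjusted p = 0.0329). Of the genes tested that way 0.207% passed as higher in clone 12 than in clone 3. At day 21 the dTAG clones were at 13.6%, 0.982%, 16.4% and 0.737%, where the first library of each clone was high and the second low, against 0% to 1.63% at day 0. The difference of 6.76 points (SE 4.37) did not pass (limma adjusted p = 0.293).

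HLA-DQB1, the beta chain of HLA-DQ at chr6:32659467-32666657, was at 8.46% and 9.86% in KO clone 3 and 4.77% and 6.87% in KO clone 12, against 4.70% in both KO parental libraries. All 4 KO libraries were above both parental ones, as for 28.6% of all genes tested. The difference of 2.79 points on average did not pass (SE 4.56, limma adjusted p = 0.798). In the dTAG clones it went from 6.04% ± 4.93 at day 0 to 15.0% ± 10.4 at day 14 and 12.1% ± 3.72 at day 21 (n = 4 each), differences of 9.00 and 6.08 points that did not pass (limma adjusted p = 0.0960 and 0.265). The highest value of the gene, 29.4%, was in 1 library of clone 11 at day 14, and the other library of that group was at 7.50%.

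HLA-DRA, the alpha chain of HLA-DR at chr6:32439887-32445046, stayed at or under 6.22% in every library. Just outside its left end, and so not counted in this share, the segment chr6:32439647-32439865 was touched by a peak in 27 of 30 libraries. These were 12 of 14 libraries with NSD2 and 15 of 16 without, and the median fold was 3.79. The gene body of HLA-DRA was at 2.17% and 3.66% (clone 3) and 0% and 0% (clone 12) in the KO experiment, with 0% in both KO parental libraries. Its day 21 difference in the dTAG clones was 0.94 points with a 95% interval from -1.29 to 3.17. In dTAG parental it was at 5.99% and 5.06% at day 21, level with the highest library without NSD2, so high coverage of HLA-DRA was not limited to libraries without NSD2.

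HLA-DRB1 (chr6:32578775-32589848) and HLA-DQA1 (chr6:32637406-32655272) were listed at 0% in all 14 libraries with NSD2. HLA-DRB1 was above 0% in 5 of the 16 libraries without NSD2, all of them dTAG clones: 8.47% and 7.08% in clone 8 at day 14, 2.19% and 2.16% in clone 8 at day 21, and 3.20% in 1 library of clone 11 at day 21. It was at 0% in all 4 KO libraries. HLA-DQA1 was above 0% in 6 libraries without NSD2, 0.358% and 1.20% in 1 library of each KO clone and up to 5.88% in the dTAG clones. Neither gene was tested. HLA-DRB5, a near copy of HLA-DRB1, was listed at 0% in all 30 libraries, and a stretch of 49602 bases around it, chr6:32485015-32534616, held no peak in any library. No library had a peak on another contig of chromosome 6. Genes of the HLA-DR and HLA-DQ beta and alpha families have near-identical copies and many alleles, and how reads matching several copies were treated is not given in the sources used here, so a listed 0 at these genes says nothing of the level of the modification.

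CD74, the invariant chain gene at chr5:150401639-150412910, was low and scattered. It was at 2.95% and 6.41% in KO clone 3 and 7.19% and 2.95% in KO clone 12, against 0% and 2.95% in KO parental, a difference of 3.40 points (SE 2.58, limma adjusted p = 0.460). At day 0 the dTAG clones were at 1.09%, 12.4%, 2.88% and 2.70%, and at day 21 at 9.58%, 0%, 4.84% and 2.51%. The day 0 and day 21 groups overlapped, and the difference was -0.53 points with a 95% interval from -4.97 to 3.91. The KO groups did not overlap, but only just, with a lowest KO library at 2.954% and a highest KO parental library at 2.945%. All KO libraries were above both parental ones for 28.6% of all genes tested.

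CIITA, the activator, at chr16:10866206-10943021, had peaks in all 30 libraries but over a small part of its 76816 bases. It was at 10.1% and 9.65% in KO clone 3 and at 10.1% and 5.15% in KO clone 12, against 7.81% and 5.60% in KO parental. The difference of 2.04 points, with a 95% interval from -0.95 to 5.03, did not pass (limma adjusted p = 0.406). In the dTAG clones CIITA was at 6.84%, 4.18%, 5.16% and 5.47% at day 0 and at 8.69%, 5.11%, 6.40% and 3.33% at day 21. The ranges overlapped, and the difference was 0.47 points with a 95% interval from -1.97 to 2.91. At day 7 the clones averaged 4.39% ± 0.658 and at day 14 6.57% ± 0.759 (n = 4 each). In dTAG parental CIITA was at 2.88% to 3.09% at day 0 and 3.88% to 5.42% at day 21. Scaled to equal called length, CIITA was 5.61 points lower at day 21 than at day 0 (difference -5.61, limma adjusted p = 0.00016), on a scale where the median of all genes was 1.36 points lower (difference -1.36). The direction for CIITA at day 21 thus depends on the scaling.

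Across the 15 group means the genes whose coverage was most like that of CIITA were PCGF5 (Pearson's r = 0.878), CTBP2 (0.862), SNAI1 (0.861), GP1BA (0.861) and SLC22A16 (0.859). They were picked as the highest r among all genes tested, so high values follow from the choice and are no test of a link. The called length itself had an r of 0.644 with CIITA over the same means.

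In the KO clones 1 of 8 tested members gained (HLA-DPA1) and 0 lost, where 18.0% of all genes tested gained and 0.744% lost. The share of members was thus near the background. The median difference of the members was 3.46 points and that of all genes 1.46. In KO clone 3 alone 1 of 8 gained, again HLA-DPA1 with 17.12 points, where 21.9% of all genes did. This call did not hold without the second KO parental library (limma adjusted p = 0.174) or the first of clone 3 (limma adjusted p = 0.212). In KO clone 12 alone 0 of 8 passed in limma, with 2 at an unadjusted p under 0.05, where 4.46% of all genes gained. All 4 KO libraries lay above both parental libraries for 3 of the 8 (HLA-DPA1, HLA-DQB1 and CD74), where 28.6% of all genes tested did. For CD74 the nearest values were 2.954% and 2.945%.

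In the dTAG clones 1 of 8 gained at day 7 (HLA-DPB1), where 21.1% of all genes did, 2 of 8 at day 14 (HLA-DPB1 and HLA-DMB), where 22.0% did, and 2 of 8 at day 21 (HLA-DPA1 and HLA-DPB1), where 26.5% did. None of the 8 lost at any of these days in limma, and at day 21 0.494% of all genes did. The shares of members that gained were again near those of all genes. All libraries were above those of day 0 for 2 members at day 7 (HLA-DPA1 and HLA-DPB1), where 29.8% of all genes were. At day 14 they were for 2 (HLA-DPB1 and HLA-DMB), where 24.6% of all genes were. At day 21 they were for 3 members (HLA-DPA1, HLA-DPB1 and HLA-DMB), where 27.6% of all genes were. The median difference of the members at day 21 was 6.42 points and of all genes 2.05. By clone, 0 of 8 members passed in clone 8, with 1 at an unadjusted p under 0.05, where 17.0% of all genes gained, and 1 of 8 in clone 11 (HLA-DPB1, 19.90 points), where 8.48% did. The call in clone 11 did not hold without the first day 0 library (limma adjusted p = 0.145), the second day 0 library (limma adjusted p = 0.134) or the first day 21 library (limma adjusted p = 0.267). In dTAG parental at day 21 0 of 8 passed, 0 also at an unadjusted p under 0.05, where 0.0143% of all genes gained. Both day 21 libraries of dTAG parental lay above both of day 0 for 4 of the 8 (HLA-DPB1, HLA-DRA, HLA-DMA and CIITA), where 18.5% of all genes did, and below them for HLA-DMB. The change in the clones differed from that in dTAG parental for 0 of 8 members by limma, 0 also unadjusted, where 1.93% of all genes gained more in the clones. These comparisons share the day 0 libraries and are not independent of each other.

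**Figure D2:**
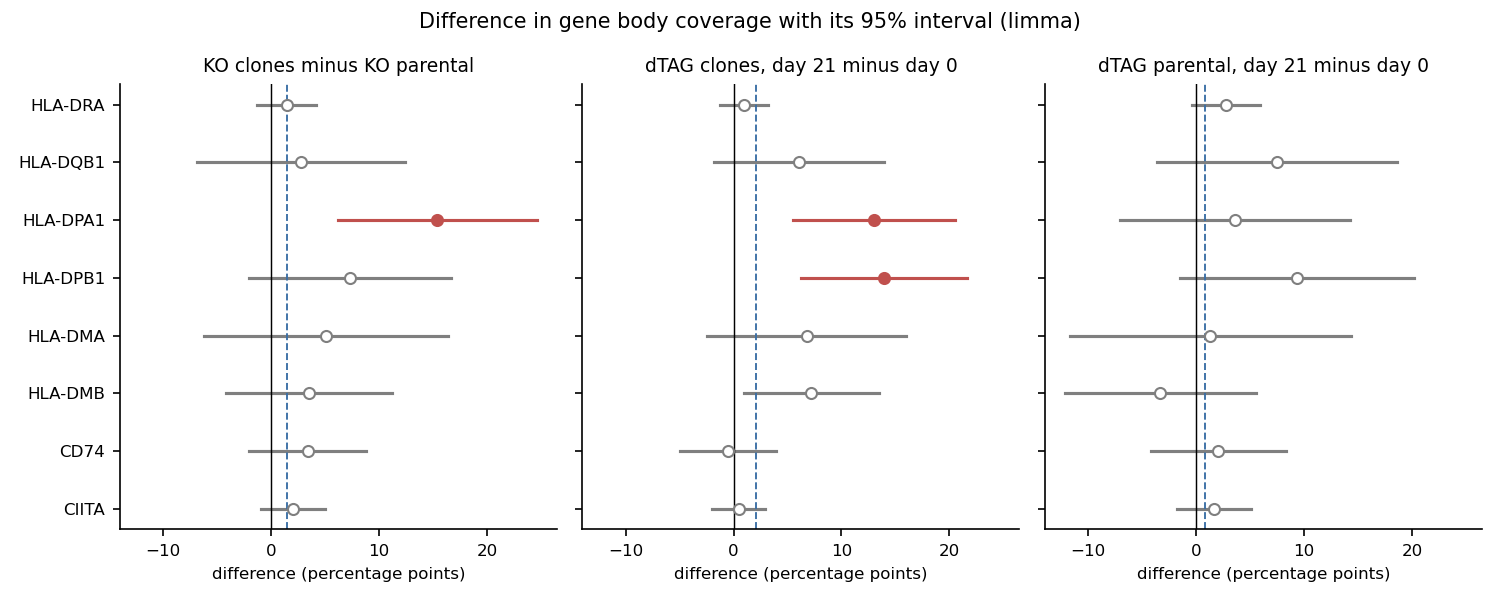
Differences in gene body coverage in percentage points (x axis) with 95% intervals from limma for the 8 tested members (y axis), in 3 comparisons; filled red points passed at an adjusted p under 0.05, open points did not, and the dashed line is the median difference of all genes tested. HLA-DPA1 passed in the KO clones, HLA-DPA1 and HLA-DPB1 at day 21 in the dTAG clones, and no member passed in dTAG parental.

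Part of the coverage of these genes lay in short segments that recurred at the same places. In libraries without NSD2, more of the mean coverage lay outside such segments in every member. Without NSD2, HLA-DPA1 averaged 0.0649% inside them and 14.9% outside, HLA-DPB1 0.0766% and 16.8%, and CIITA 1.40% and 5.00%. With NSD2, HLA-DMB averaged 4.17% inside and 2.77% outside. Segments at the gene starts were picked as those inside peaks in at least 24 of the 30 libraries. With 16 libraries without NSD2, that rule cannot be met without libraries of both kinds. Their presence with and without NSD2 is thus a description and no result. A library was counted for a segment when a peak touched any of its bases. The segment chr6:32953052-32953442 crosses the start of HLA-DMA and the segment chr6:32940754-32941164 that of HLA-DMB. Both were touched in 14 of 14 libraries with NSD2 and in 16 of 16 without. At the start of HLA-DQB1 the numbers were 13 of 14 and 16 of 16, and at that of HLA-DPB1 10 of 14 and 14 of 16. The authors' fold over background of these peaks was moderate, with a median of 5.08 at HLA-DMA, 4.06 at HLA-DMB, 4.48 at HLA-DQB1 and 2.96 at HLA-DPB1. A peak within 1 kb of the start in at least 24 libraries was found for 4 of 8 members with a start (50%) and for 62.4% of all 13392 genes with one, so it is common to many genes.

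Within 2 kb on each side of the outermost listed start, 7 members could be tested. None gained in the KO clones by limma, with 1 at an unadjusted p under 0.05 (HLA-DPB1, 18.3 points), where 1.68% of all start windows gained. None gained at day 21 either, with 1 at an unadjusted p under 0.05 (HLA-DQA1, 7.80 points), where 5.72% of all start windows did. The start window of HLA-DMA was covered at 10.1% ± 1.38 in the KO clones and 11.9% ± 1.52 in KO parental, and at 11.5% ± 2.59 at day 21 and 9.44% ± 1.80 at day 0. That of HLA-DMB was at 17.2% ± 3.24 and 18.5% ± 2.76 in the KO comparison and at 19.8% ± 3.26 and 14.7% ± 6.92 in the dTAG clones.

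Away from the starts, windows were picked by another rule, given below, so they cannot be set against the segments at the starts. In HLA-DPB1 the window chr6:33088490-33089089, near the 3′ end of the gene, was inside peaks in up to 62.2% of libraries without NSD2 and 14.3% of those with it. In HLA-DPA1 the window chr6:33068869-33069668 reached 93.8% and 54.4%. In HLA-DQB1 the window chr6:32659967-32660366, near the 3′ end, reached 70.8% and 21.4%, and in HLA-DMB the window chr6:32935636-32935935, also near the 3′ end, reached 68.5% and 19.5%. A window outside the gene, chr6:32931136-32931735, beyond the 3′ end of HLA-DMB, was inside peaks in 100% of libraries without NSD2 and at most 32.4% of those with it. These windows were chosen as those with a peak in at least 50% of libraries without NSD2, so the shares are a description with no test.

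With the bases within 2 kb of the start removed, an alternative added after the data had been seen, HLA-DMA was at 0% ± 0 at day 0 and 11.3% ± 13.2 at day 21, and HLA-DMB at 0% ± 0 and 7.97% ± 6.23 (n = 4 each; limma adjusted p = 0.272 and 0.169). HLA-DPB1 was at 2.87% ± 3.54 and 16.4% ± 5.04 (adjusted p = 0.00461 by limma) and HLA-DPA1 at 4.45% ± 3.25 and 17.9% ± 9.61 (adjusted p = 0.0151 by limma). Only the outermost listed start was removed. HLA-DPA1 has a second listed start inside its body, preceded by chr6:33073650-33073849, and the bases around that start were kept. At day 14 the gain of HLA-DMB away from the start was 16.00 points (limma adjusted p = 0.00897).

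In CIITA, segments and windows were picked by the same rules. The segment chr16:10876814-10877367 inside the gene was touched by a peak in 30 of 30 libraries, chr16:10942346-10942641 in 27, chr16:10871209-10871349 in 25 and chr16:10918702-10918949 in 24. Numbers with and without NSD2 were similar, which the rule of at least 24 libraries in part sets. The window chr16:10866406-10866605 at the left end of the gene reached 59.1% of libraries without NSD2 and 0% of those with it, and chr16:10923506-10923705 reached 50% and 4.36%. Coverage of CIITA outside these shared segments averaged 5.00% without NSD2 and 3.12% with it, and inside them 1.40% and 1.45%. The likeness inside them follows in part from how they were picked. CIITA encloses DEXI, a neighbour gene at its right end, so peaks there belong to both.

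**Figure D3:**
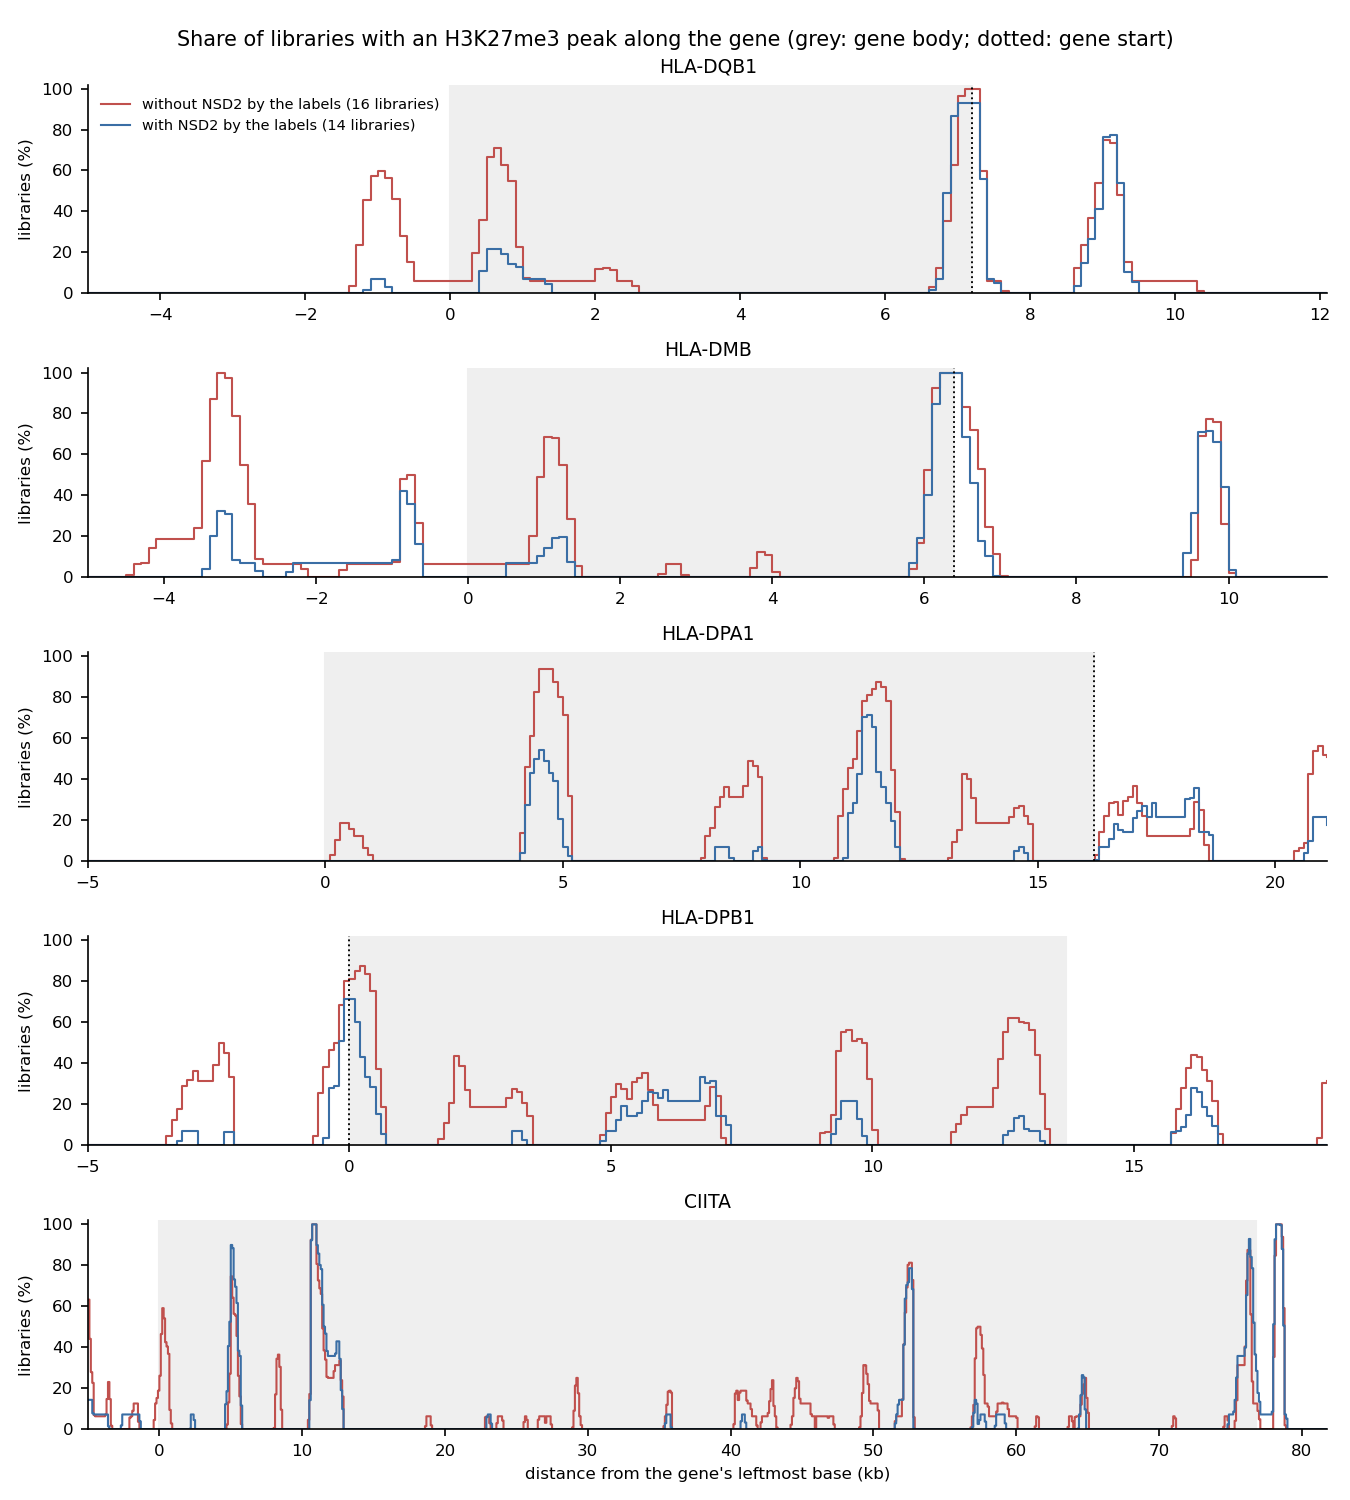
Share of libraries with an H3K27me3 peak (y axis, percent, in 100-bp windows) against distance from the gene's leftmost base in kb (x axis) for HLA-DQB1, HLA-DMB, HLA-DPA1, HLA-DPB1 and CIITA; the gene body is grey and the gene start, where known, dotted. At the starts of HLA-DQB1 and HLA-DMB libraries with and without NSD2 overlie each other. In windows near the 3′ ends libraries without NSD2 reach 70.8% and 68.5% against 21.4% and 19.5%. Those windows were picked for peaks in at least 50% of libraries without NSD2.

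The span from HLA-DRA to HLA-DPB1, chr6:32439887-33089696, was covered at 8.11% ± 2.16 in the KO clones (n = 4) and 4.05% ± 0.839 in KO parental (n = 2), and in the dTAG clones at 2.41% ± 0.761 at day 0 and 8.83% ± 1.44 at day 21 (n = 4 each). Cut into 25-kb bins, 24 could be tested. In the KO clones 6 of 24 (25.0%) gained by limma, where 37.3% of all bins did. At day 21 17 of 24 (70.8%) gained, where 51.6% of all bins did, and 0 lost. In the KO clones the bins that gained were the one right of the HLA-DQB1 neighbourhood, those with HLA-DQA2 and with HLA-DOB, 1 left of HLA-DMB, and 2 that end before and within HLA-DPA1. The bin with HLA-DPA1 went from 2.57% to 18.0% at day 21, and a bin without a protein-coding gene left of HLA-DMB from 0% to 10.5%. Around CIITA 1 of 4 bins gained at day 21, the leftmost, from 2.62% to 10.5%. In dTAG parental that leftmost bin went from 2.43% at day 0 to 7.29% at day 21 (n = 2 each), which did not pass. In the KO clones it was at 6.70% against 8.93% in KO parental, which did not pass (difference -2.23). There 1 of 4 bins gained, chr16:10900001-10925000, from 3.31% to 10.9% (limma adjusted p = 0.0289).

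**Figure D4:**
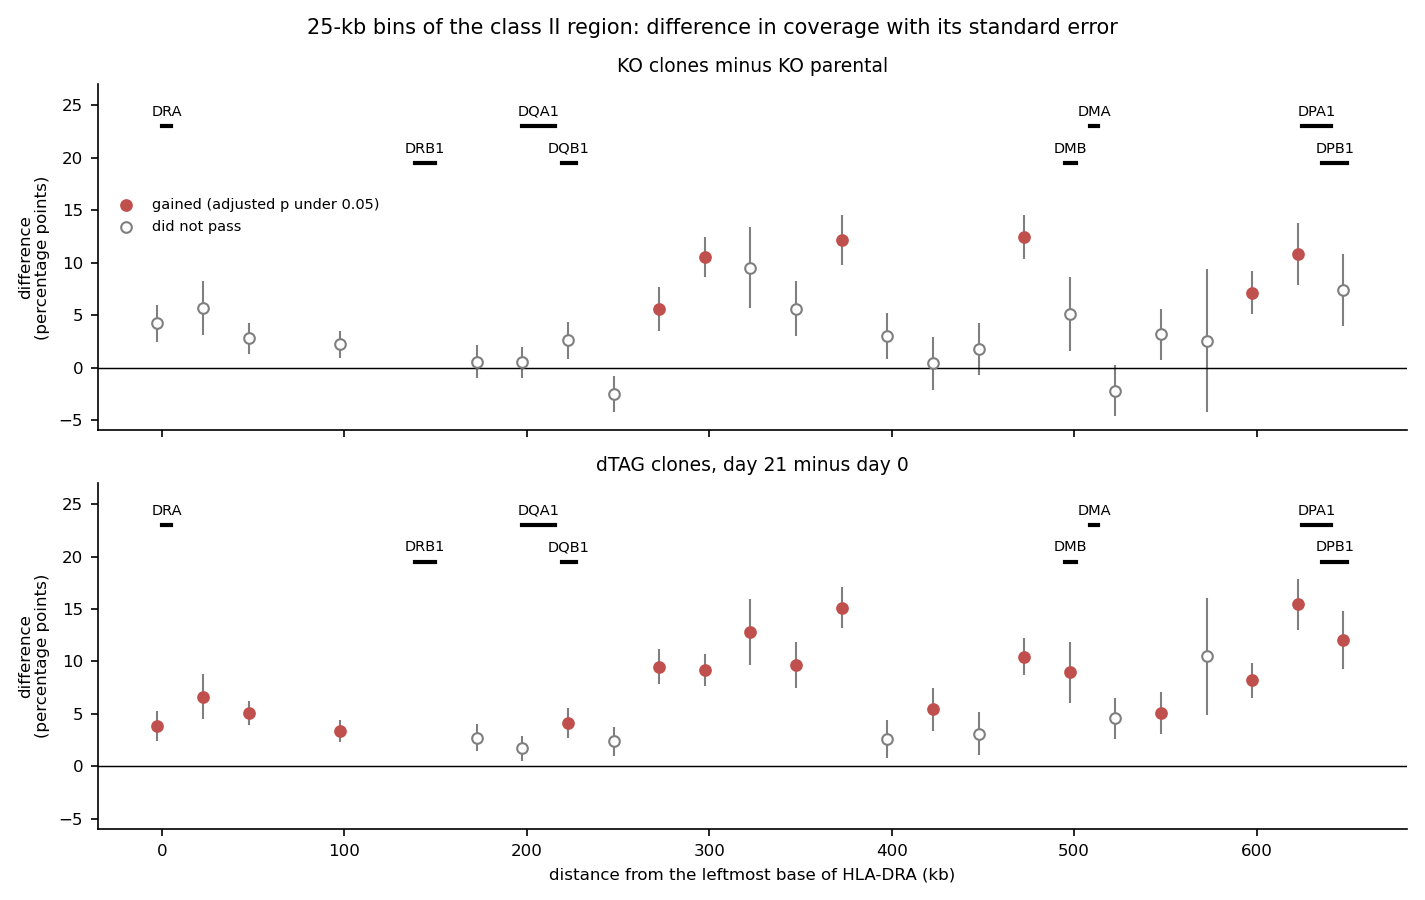
Difference in coverage of 25-kb bins in percentage points (y axis, bars are the standard error) along the class II region, by distance from the leftmost base of HLA-DRA in kb (x axis); black bars mark the members and red points passed at an adjusted p under 0.05. In the KO clones 6 of 24 bins passed and at day 21 in the dTAG clones 17 of 24, with no tested bin over HLA-DRB1.

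Of the other class II genes of the region, HLA-DOB, the beta chain of HLA-DO, which restrains HLA-DM, gained in both systems. It was at 40.8% ± 8.39 against 4.38% ± 6.19 in KO parental (limma adjusted p = 0.0195), and 48.2% ± 5.38 at day 21 against 5.28% ± 10.6 at day 0 (limma adjusted p = 0.00114). HLA-DQA2, a copy of HLA-DQA1, went from 0% to 21.6% ± 8.37 in the KO clones (limma adjusted p = 0.0436) and from 0% to 22.9% ± 15.4 at day 21 (limma adjusted p = 0.00709). HLA-DQB2 gained at day 21, from 0% to 22.1% ± 3.80 (limma adjusted p = 0.00411). In all, 2 of the 4 tested genes of this list gained in the KO clones, where 18.0% of all genes tested did, and 3 of 4 at day 21, where 26.5% did, and none lost. In dTAG parental the median of the list went from 0% at day 0 to 12.2% at day 21, and no gene of it passed. Unlike the members, neither these genes nor those of the lists below were examined under the alternative settings or with libraries left out.

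The next counts come from short lists and stand beside 18.0% of all genes tested that gained in the KO clones and 26.5% at day 21. Among 5 enzymes of the class II route, 1 gained in each system. CTSS, cathepsin S, which trims CD74, went from 1.64% ± 0.646 in KO parental to 23.4% ± 8.55 in the KO clones (limma adjusted p = 0.00023). At day 21 it went from 1.25% ± 1.22 at day 0 to 24.5% ± 5.18 (limma adjusted p = 2.14e-05). The proteins that recruit CIITA to DNA (RFX5, RFXAP, RFXANK, CREB1, NFYA, NFYB and NFYC) had 5 tested genes, of which 0 passed in either system by limma, with a median difference of -0.53 and 0.52 points. Of 6 tested genes that lead to CIITA induction, JAK1, a kinase of interferon-gamma signalling, gained in the KO clones (2.47% ± 0.903 to 6.39% ± 0.755, limma adjusted p = 0.00533) and at day 21 (2.44% ± 0.413 to 6.40% ± 1.28, limma adjusted p = 0.00081), and IRF1 at day 21 (1.09% ± 1.09 to 3.03% ± 1.67, limma adjusted p = 0.0483). PRDM1, the repressor of CIITA, was at 0.426% on average and was not tested.

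Class I genes present peptides from the cell's own proteins, and NLRC5 is their activator as CIITA is for class II. Of 13 class I genes tested, 2 gained in the KO clones, NLRC5 (2.46% ± 1.21 to 9.67% ± 4.08, limma adjusted p = 0.0127) and HLA-F (6.16% ± 0.698 to 15.0% ± 7.33, limma adjusted p = 0.0311), and 1 at day 21, HLA-F (7.45% ± 1.91 to 16.1% ± 3.02, limma adjusted p = 0.00790). These shares of the class I list were below the 18.0% and 26.5% of all genes that gained, and the shares of the lists that follow can be read against the same values. Beside CIITA, CLEC16A gained in the KO clones and TVP23A at day 21, each 1 of 4 genes tested. Beside CD74, 0 of 2 tested genes passed in either system by limma. None of these lists had a gene that passed in dTAG parental at day 21, and none had a gene that lost.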

How the data were processed

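H3K27me3 CUT&Tag was measured in 30 KMS-11 libraries, and 10 further libraries in the labels (IgG, H3K27ac and H3K4me3) were not analysed here. The deposited files are broad peak lists, 1 per library, on hg38 per the submitters' processing notes, which also name MACS3 3.0.2, fastp 0.24.0, Picard, Bowtie2, ChIPseeker 1.42.1, SAMtools, DESeq2 and deepTools 3.5.1, with no roles given. Each deposited peak carries the authors' score, their fold over background as a ratio, and −log10 p and −log10 q values. The deposited score was 10 times −log10 q for nearly all peaks. The sources used here give neither read totals nor the control used in calling. Peaks of a library were merged, and the percent of each RefSeq (GRCh38.p14) protein-coding gene of at least 1000 bases inside them was computed with Python 3.11.15. Genes with a mean from 1% to 99% were tested in R 4.3.3 by limma 3.58.1, which fitted a mean for each group and a variance trend, with Benjamini-Hochberg adjustment, at 0.05. Background pileup was estimated from the fold and p of the shortest 2% of peaks, assuming a pseudocount and a genome-wide background. The fit was tested on simulated data. The text names all 10 members, every gene of the fixed lists that passed, and the 5 genes most like CIITA. The members and lists were chosen with earlier results of these data known, and the comparisons between clones were added after the data had been seen. Deviations of same-numbered libraries from their group means correlated with r from 0.0335 to 0.558 (median 0.187) over 105 pairs, all positive. Replicate 1 had the longer called length in 13 of 15 groups. Same-numbered libraries thus shared a part of their deviation. The labels do not say what the numbers stand for, so the main fit left them out, and a fit with a replicate block is given as an alternative.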

Additional observations from a re-analysis of the deposited data

Results flagged for a closer look

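In groups of 4 libraries (both clones of a system), 6 values stood apart from the other 3 by their gap to the nearest value over the range. Chance meets this rule in about 1 in 20 groups of normally spread values, and coverage with many values at 0% is not of that kind. With the other 3 libraries at 0%, as for HLA-DQA1, the gap over the range is 1 for any value above 0%. CIITA was at 5.15% in the second library of KO clone 12, the lowest of the 4 KO libraries, the others being at 9.65% to 10.1%. HLA-DQA1 was at 5.88% in the first day 7 library of clone 11 and at 2.09% in its second day 21 library, with 0% in the other 3 of each group. HLA-DMA was at 0% in the second day 0 library of clone 8, the others being at 1.45% to 1.63%. CD74 was at 12.4% in that same library, the others being at 1.09% to 2.88%. HLA-DRA was at 5.99% in the first day 21 library of clone 11, the others being at 0% to 0.911%.

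HLA-DMA moved in opposite directions in the KO clones. It was 5.61 points lower than KO parental in clone 3 (difference -5.61) and 15.78 points higher in clone 12. The difference between the clones, 21.40 points, did not pass (limma adjusted p = 0.0644). With the bases within 2 kb of the start left out it was 40.38 points and passed (limma adjusted p = 0.0329).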

How the results depend on the processing

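Members gained in the KO clones numbered 1, and 0 with lists shortened to equal length, with a −log10 q of at least 5, with a fold of at least 4, with gaps of up to 3 kb between peaks closed (joined peaks), with 2 kb added on each side, with only the compared groups, or without the bases the HLA-DP genes share; leaving out 1 library gave 0 to 1. At day 7 the count of 1 became 0 with scaling by called length, equal length, pileup as covariate, −log10 q of at least 5, fold of at least 4, joined peaks, no coverage filter, no variance trend, the start left out, or the HLA-DP genes apart, and 2 with the replicate block or only the compared groups; leaving out 1 library gave 0 to 0. At day 14 the count of 2 became 1 with scaling or equal length, and 0 with −log10 q of at least 5, fold of at least 4, joined peaks or only the compared groups; leaving out 1 library gave 2 to 3. At day 21 the count of 2 became 1 with scaling, equal length, joined peaks or only the compared groups, and 0 with the pileup covariate, −log10 q of at least 5 or fold of at least 4; leaving out 1 library gave 1 to 2. Under scaling, members lost were 2 (day 7), 1 (day 14) and 1 (day 21) in place of 0, and they were 0 to 1 at days 7 and 14 with 1 library left out. For the change in the clones minus that in dTAG parental, 1 gained under equal length and 1 lost under scaling. A start window of 5 kb gave 1 gained member in the KO clones (HLA-DPB1) and 1 at day 14 (HLA-DMA, limma adjusted p = 0.0407). Of the 10-kb class II bins 14.8% gained and 1 lost in the KO clones, where 19.6% of all such bins gained, and 51.9% gained at day 21, where 31.8% did.

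Directions turned as follows, in points. In the KO clones, scaling gave -1.31 for HLA-DQB1, -2.19 for HLA-DMB and -3.09 for CIITA. Equal length gave -0.28 for HLA-DMA and -2.44 for CIITA. A −log10 q of at least 5 gave -0.28 for HLA-DMA, -0.86 for HLA-DMB and -0.40 for CIITA, and a fold of at least 4 gave -0.28 for HLA-DMA and -0.28 for HLA-DMB. HLA-DPB1 over its own bases gave -1.43. At day 21, scaling gave -0.29 for HLA-DRA, -0.46 for HLA-DQB1, -0.49 for HLA-DMB and -5.61 for CIITA. Equal length gave -0.21 for HLA-DQB1 and -1.63 for CIITA, the pileup covariate -0.99 for CIITA and 0.15 for CD74, joined peaks 4.83 for CD74, −log10 q of at least 5 -0.44 for CIITA, and fold of at least 4 -1.88 for HLA-DMB. Equal length gave -1.24 at day 7, -0.27 at day 14 and, in clone 11 at day 21, -0.69 for HLA-DPB1. For HLA-DMB at day 14, −log10 q of at least 5 gave -1.05 and fold of at least 4 -1.91. With 1 library left out, the lowest and highest values were -0.60 and 10.77 for HLA-DMA in the KO clones and, at day 21, -0.33 and 2.21 for HLA-DRA, -3.36 and 2.29 for CD74, and -0.43 and 1.36 for CIITA. The cause of these turns was not tested. Besides day 7, the replicate block moved the count of gained members at day 14, to 3, and no other count of members. Read depth is unknown, which limits every comparison of called length.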
